A study of Mus musculus with 4 samples.

Results

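The 9 genes described here are transcriptional targets and transcription factors of canonical Wnt signaling, and they were followed through the cells of developing mouse molars. They were taken from the features of all 4 libraries by their symbols, and each was found once among 32285 genes. Axin2, Nkd1, Nkd2 and Apcdd1 are feedback genes, Lef1, Tcf7, Tcf7l1 and Tcf7l2 encode the TCF/LEF family, and Ctnnb1 encodes beta-catenin. Single cells were isolated from maxillary and mandibular molar tooth organs of wild-type mice (WTB6 in the labels, C57BL/6J per the authors) at embryonic stage E15.5 (E15 in the labels) and after birth at P1 (collected at P0/P1). Each combination of stage and jaw is 1 library made from 6 pooled tooth organs, and no other treatment or genotype was used. With 1 library per group no difference between stages or jaws can be tested, and each interval below covers counting error only.

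When a Wnt ligand binds its receptors, beta-catenin escapes degradation, enters the nucleus and binds TCF/LEF factors on DNA. Axin2, Nkd1, Nkd2 and Apcdd1 are then transcribed in many tissues and dampen the pathway, so their transcripts are widely read as a sign of Wnt response. Without beta-catenin, TCF/LEF factors hold targets silent together with Groucho/TLE co-repressors. Teeth form by exchange of signals between epithelium and the neural crest-derived mesenchyme beneath it, and in mice without Lef1 tooth development arrests early.

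All 9 gene identifiers of the files were found in the GENCODE vM21 annotation of the GRCm38 build. Axin2 spans chr11:108920349-108950783 on the plus strand, Nkd1 chr8:88521354-88594884 (plus) and Nkd2 chr13:73818534-73847631 (minus). Among the factors, Lef1 spans chr3:131110471-131224356 (plus), Tcf7 chr11:52252371-52283014 (minus), Tcf7l1 chr6:72626378-72789254 (minus) and Tcf7l2 chr19:55741820-55933654 (plus). Ctnnb1 spans chr9:120929216-120960507 on the plus strand. The counts come from 3′ ends of transcripts and join all transcripts of a gene, so full-length and shorter TCF/LEF forms cannot be told apart.

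TCF/LEF proteins bind DNA that holds the letters CTTTGAA. The motif searched for was this run, with either of the final letters also read as T so that CTTTGTT matched as well, together with the reverse complements. The 250 bases before the RefSeq start sites of 8 of the genes (GRCm38.p6, Apcdd1 not used here) were searched on both strands for these letters. They were found before 1 of 4 Lef1 starts and 1 of 2 Tcf7l2 starts, and before no start of Axin2, Nkd1, Nkd2, Tcf7, Tcf7l1 or Ctnnb1. Of all 32851 RefSeq promoters, 14.8% hold at least 1 of these motifs in the same window. The stretches around the 2 matches are shown with the matching letters in capitals. They lie at chr3:131156121-131156180 and chr19:55895261-55895320 on the plus strand, and the matches are 147 and 14 bases before the respective starts. Both stretches lie within the gene spans given above, so these starts are internal ones. Binding to them was not tested.
Lef1: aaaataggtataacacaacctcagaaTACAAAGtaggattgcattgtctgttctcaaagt
Tcf7l2: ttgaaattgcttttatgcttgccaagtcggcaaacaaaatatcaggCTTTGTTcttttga

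The libraries held between 86659227 and 139873101 UMIs (unique molecular identifiers, each standing for 1 captured transcript). After filtering, 8389 E15.5 maxillary, 6048 E15.5 mandibular, 13721 P1 maxillary and 8124 P1 mandibular cells were kept, of 56940 barcodes in all. The 2 P1 libraries shared 7131 barcodes, against 28 to 70 in every other pair of libraries. The median depth of a shared barcode was 12088 UMIs on the maxillary side but 2870 on the mandibular side, and 38 were deeper on the latter. They were kept in P1 maxillary and dropped from P1 mandibular. They made up 98.6% of the dental papilla-like, 98.2% of the connective tissue fibroblast-like and 97.4% of the odontoblast/osteoblast-like cells of P1 maxillary. They were 80.8% of its ameloblast-like but 0.434% of its chondrocyte-like cells. To which library these cells belong is not known. The comparisons with P1 maxillary were repeated without them, and many of their ratios are given both ways, while levels of single clusters were not recomputed. The remaining cells were then clustered again, so that a class name could fall on other cells than before.

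The members and the other pathway genes followed below were kept out of the clustering. It was done library by library, and clusters were called X-like from marker lists. Epithelium-like cells numbered 722, 94, 2141 and 1204 and mesenchyme-like cells 5066, 1901, 7698 and 4179, in E15.5 maxillary, E15.5 mandibular, P1 maxillary and P1 mandibular, the order used throughout. The compartments were named from 8 epithelial and 8 mesenchymal markers, and all of them reached 10 CPM in their own compartment of every library. Since they gave the names, this is no independent check. In epithelium-like cells 5, 6, 5 and 5 of the mesenchymal markers reached 10 CPM too. In mesenchyme-like cells 1, 0, 0 and 1 of the epithelial markers did. Clusters that could not be named took 1.49%, 20.7%, 1.70% and 8.03% of cells. Tooth cells were not alone in the libraries: P1 maxillary also held 621 neuron-like, 461 chondrocyte-like and 343 olfactory or respiratory epithelium-like cells. A name with a slash marks cells whose marker scores for 2 classes lay close together, and markers of odontoblasts and osteoblasts could not be separated at P1.

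Levels are given as CPM, the UMIs of a gene scaled to 1000000 UMIs of a cell class, with exact 95% Poisson intervals, and they are compared between classes of 1 gene and not between genes. A gene was called different where the ratio of 2 levels was at least 2-fold, that is a log2 ratio of at least 1, and the share of all measured genes called in the same way stands beside each count. In these bulk sums, fewer expressing cells and less RNA per cell cannot be told apart.

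**Figure D1:**
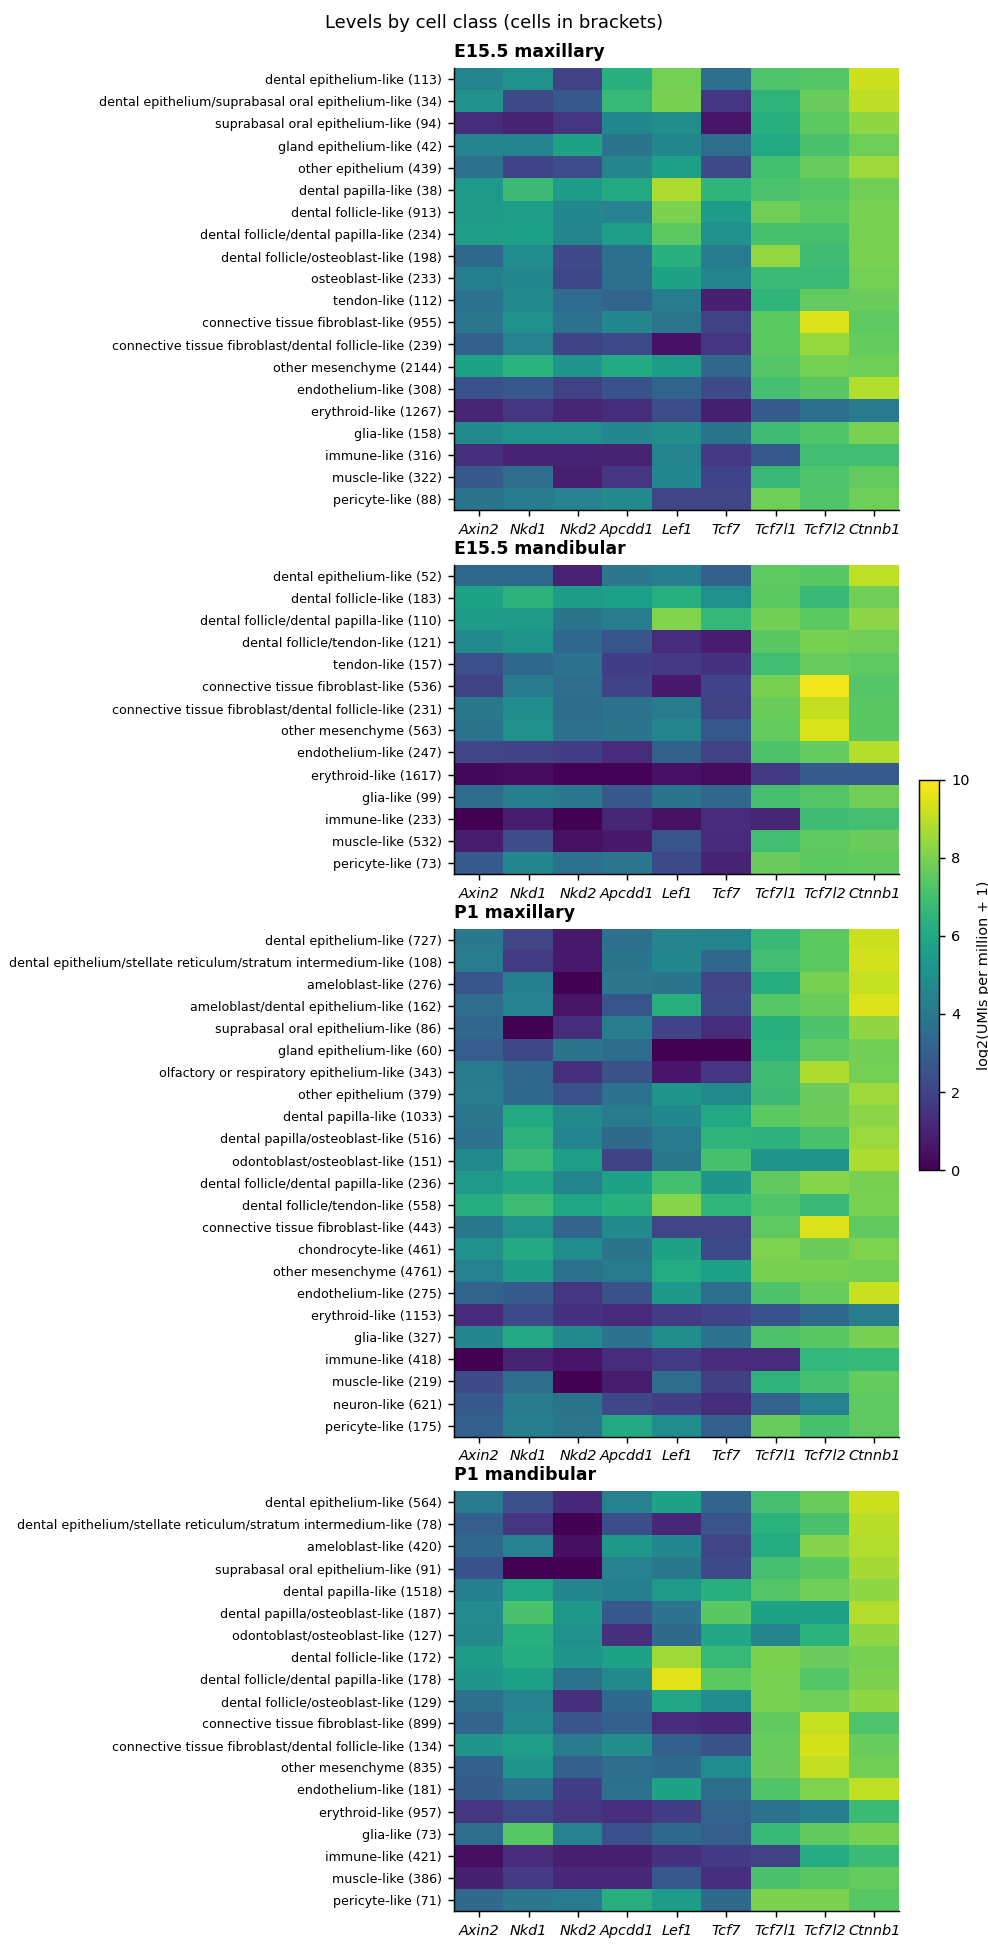
Colour gives log2(CPM + 1) of the 9 genes (columns) in each cell class (rows, number of cells in brackets) of the 4 libraries. Lef1 is bright in dental follicle-like rows (262.8, 78.7 and 384.8 CPM) and darker in connective tissue fibroblast-like rows, where Tcf7l2 is bright, and erythroid-like and immune-like rows are dark for most genes.

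Axin2, the scaffold that promotes beta-catenin breakdown and is itself induced by Wnt, was high in follicle-like mesenchyme. Its level in dental follicle-like cells was 41.0 in E15.5 maxillary, 54.7 in E15.5 mandibular and 43.4 in P1 mandibular, and 74.3 in the dental follicle/tendon-like cells of P1 maxillary. Left without the shared barcodes, follicle/tendon-like cells of P1 maxillary held 35.4, dental papilla-like cells 45.5 and dental follicle-like cells 52.2 (10 UMIs). The follicle-like levels were the highest of any class in E15.5 mandibular and P1 mandibular, while in E15.5 maxillary mesenchyme without a name held 54.4 and dental follicle/dental papilla-like cells 48.2. In the E15.5 mandibular dental follicle-like cells the summed follicle markers were 788 CPM, no higher than the 858 of the connective tissue fibroblast-like cells there, so that name is weakly held. Axin2 stood at 14.3 and 19.0 in P1 dental papilla-like cells of the maxilla and mandible. The maxillary value thus rests on the shared barcodes. In connective tissue fibroblast-like cells it was 14.2, 3.2, 14.8 and 8.6. Without those barcodes, the P1 maxillary cells then given that name held 25.98. Muscle-like cells held 6.0, 0.8, 4.1 and 0.8, and immune-like cells 1.5, 0.0, 0.0 and 0.3.

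Follicle-like cells also stood above blood cells at 1 fixed depth. After every cell was thinned to 2000 UMIs, Axin2 was detected in 8.13% of E15.5 maxillary and 10.9% of E15.5 mandibular dental follicle-like cells, where 25.8% and 41.0% had carried a UMI before thinning. Immune-like cells, which should lack Axin2, gave 0% after thinning in all 4 libraries, with 314, 210, 313 and 397 cells. Their exact binomial upper bounds ran from 0.925% to 1.74%. Erythroid-like cells gave 0.0687% to 0.386%. Median depths were 8464 and 10931 UMIs in the follicle-like cells, and between 2694.5 and 11506 in the immune-like cells.

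**Figure D2:**
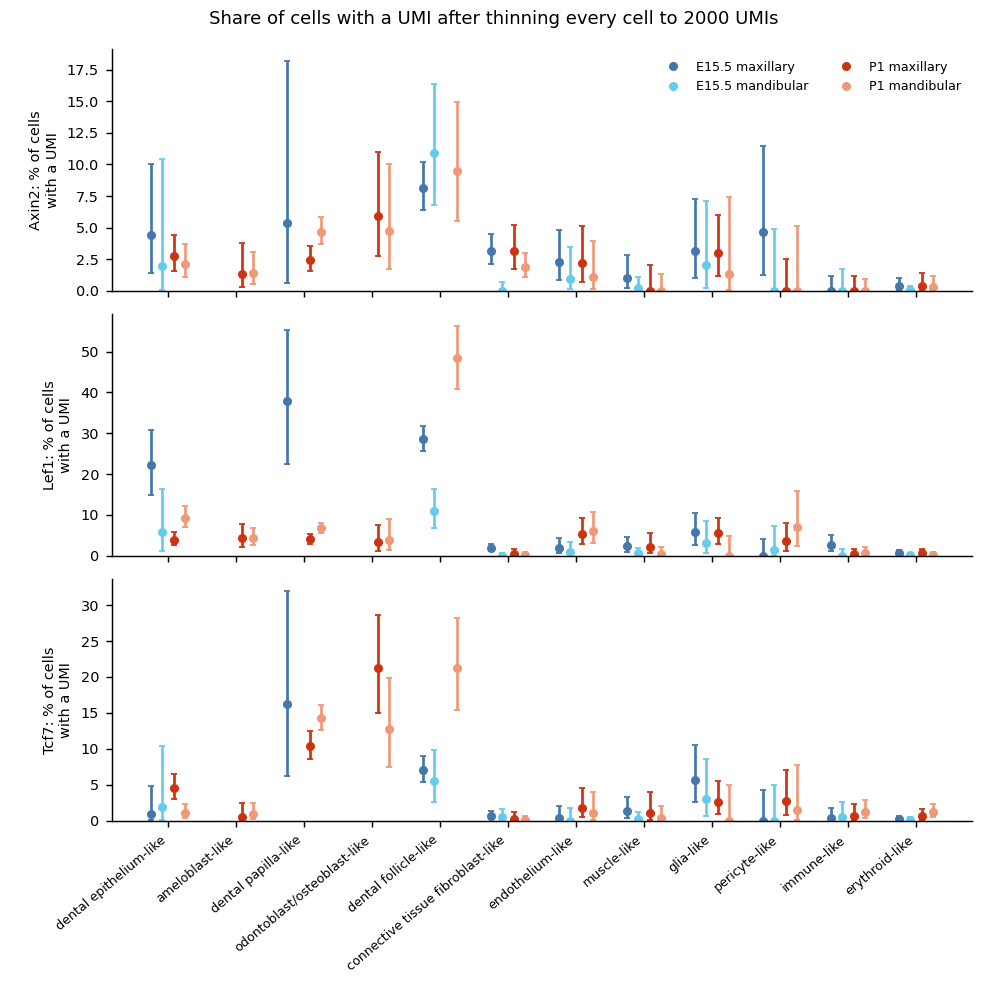
Points give the percentage of cells with at least 1 UMI of Axin2, Lef1 or Tcf7 (vertical axis) in each cell class (horizontal axis) after thinning each cell to 2000 UMIs, coloured by library, with exact 95% binomial bars. Lef1 reached 48.5% of P1 mandibular dental follicle-like cells, while immune-like and erythroid-like cells stayed at or under 2.55% for all 3 genes.

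Nkd1, which binds Dishevelled and dampens Wnt signaling, was a mesenchymal transcript at both stages. Its level in mesenchyme-like cells was 55.7, 29.7, 61.1 and 53.2, against 7.9, 9.6, 8.5 and 8.9 in epithelium-like cells, and the intervals of the compartments did not overlap in any library. The log2 ratio of epithelium to mesenchyme was -2.82 (-3.13 to -2.52), -1.62 (-2.29 to -1.03), -2.84 (-3.06 to -2.62) and -2.59 (-2.82 to -2.36). In P1 maxillary it was -2.745 without the shared barcodes.

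Nkd2, a relative of Nkd1 with the same role, was lower in epithelium as well. It stood at 23.5, 13.9, 21.3 and 17.7 in mesenchyme-like and 6.7, 5.9, 1.3 and 3.4 in epithelium-like cells. Within the epithelium, the 42 gland epithelium-like cells of E15.5 maxillary held 52.7, while the ameloblast-like cells of P1 held 0.0 and 0.3. The P1 maxillary ratio of -3.99 (log2, -4.58 to -3.45) became -2.05 without the shared barcodes.

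Apcdd1, a membrane protein that inhibits Wnt at the receptor, had no common direction. Its epithelial level was 34.1, 34.4, 11.3 and 24.2, and its mesenchymal level was 40.9, 11.8, 19.5 and 15.2. It was higher in epithelium in both mandibular libraries and lower in both maxillary ones, at least 2-fold only in E15.5 mandibular (log2 1.54). Pericyte-like cells at P1 held 64.2 and 75.7, the former 29.6 (12 UMIs) without the shared barcodes.

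Lef1 varied widely among mesenchymal cells. Dental follicle-like cells held 262.8 in E15.5 maxillary, 78.7 in E15.5 mandibular and 384.8 in P1 mandibular. Dental follicle/dental papilla-like cells held 177.9, 277.0, 125.9 and 759.0. Connective tissue fibroblast-like cells, by contrast, held 14.2, 0.6, 3.3 and 1.4. Without the shared barcodes, the P1 maxillary cells then given that name held 40.3. After thinning, Lef1 was detected in 62.9% of the P1 mandibular dental follicle/dental papilla-like cells and in 28.6% of the E15.5 maxillary dental follicle-like cells, against 0% to 2.55% of immune-like cells.

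Tcf7, whose product TCF1 acts as an activator with beta-catenin and which is itself a Wnt target, was measured in the same classes. Dental follicle-like cells held 44.4, 31.2 and 103.4 in E15.5 maxillary, E15.5 mandibular and P1 mandibular, and follicle/tendon-like cells of P1 maxillary 94.8, or 13.02 (14 UMIs) without the shared barcodes. In P1 dental papilla-like cells Tcf7 was at 66.2 and 76.3. The maxillary class is 98.6% shared barcodes, and without them the cells then given that name held 4.4 (4 UMIs). Fibroblast-like cells held 2.8, 3.0, 3.3 and 1.2.

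Tcf7l1, the family member best known as a repressor, differed by less than 2-fold between epithelium and mesenchyme. It stood at 175.6, 206.7, 188.3 and 170.8 in mesenchyme-like and 115.3, 123.7, 109.9 and 106.0 in epithelium-like cells, a log2 ratio between -0.78 and -0.61 that was not called in any library. Muscle-like cells held 88.9 to 139.9, whereas immune-like cells held 1.1 to 5.8.

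Tcf7l2, which can act as activator or repressor, marked another part of the mesenchyme. In connective tissue fibroblast-like cells it was 703.5, 887.9, 702.9 and 551.1. Against all other mesenchyme-like cells of the same library this was a log2 ratio of 1.74 (1.69 to 1.78), 0.92 (0.87 to 0.96), 1.78 (1.72 to 1.84) and 0.95 (0.90 to 0.99). It was 1 of 9 members called higher in E15.5 maxillary (3.57% of all genes) and in P1 maxillary (8.19%), and no member was called higher in the mandibular libraries (1.37% and 8.48%). In the same cells 4, 5, 3 and 6 of 9 members were called lower, against 5.9%, 6.34%, 12.5% and 13.8% of all genes, and Lef1 and Tcf7 were among them each time. In P1 maxillary 98.2% of these cells were shared barcodes, and without them 8 of the 443 remained. The 260 cells then given that name were thus mostly others. Their log2 ratio was -0.03 for Lef1, against -4.21 with the shared barcodes, and 0.03 for Nkd2, so neither was called. Tcf7 (-1.92) and Tcf7l2 (1.10) were beyond 2-fold in them.

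Ctnnb1 was found in every class and was higher in epithelium. Epithelium-like cells held 389.9, 442.8, 525.8 and 518.5 and mesenchyme-like cells 221.6, 184.5, 275.7 and 271.7. Endothelium-like cells, which also use beta-catenin at their junctions, held 463.4, 466.8, 572.4 and 525.7. The log2 ratio of epithelium to mesenchyme was 0.82, 1.26, 0.93 and 0.93, at least 2-fold only in E15.5 mandibular.

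High levels of 6 members coincided in 1 kind of mesenchyme cluster, led by Ibsp, Bmp3, Spon1, Runx2 and Moxd1, of which Ibsp and Runx2 are known from bone and cementum-forming cells. It held 145 cells in E15.5 maxillary, 205 in P1 maxillary and 72 in P1 mandibular. Axin2 was 79.9, 87.2 and 87.9 there, Lef1 433.1, 524.5 and 626.6, and Tcf7 102.3, 154.5 and 139.1. Nkd1 was 91.9, 155.8 and 143.9, Nkd2 55.1, 59.7 and 71.9, and Apcdd1 63.9, 109.2 and 124.7. All 6 genes were thus above the mean of the mesenchyme of their library in all 3 clusters, which were described after their values were seen. The P1 maxillary cluster was not measured without the shared barcodes.

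Other clusters were described after their values were seen too. In E15.5 maxillary, 159 cells led by Itgbl1 and Ryr3 held 92.0 Axin2, with Lef1 at 17.4 and Tcf7 at 15.8. A cluster led by Nxph1 and Slc25a21 held 103.8 Axin2 and 182.0 Apcdd1 in the maxilla (204 cells) and 48.3 and 65.5 in a related cluster of the mandible (102 cells), with Lef1 at 73.1 and 49.2 and Tcf7 at 11.8 and 12.1. The mesenchyme-like cells of those libraries held 81.0 and 28.3 Lef1 and 15.3 and 10.3 Tcf7. None of these clusters could be given a cell type name.

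Read together, 4 of 9 members (Axin2, Nkd1, Nkd2 and Tcf7) were at least 2-fold lower in epithelium than in mesenchyme in E15.5 maxillary, against 15.1% of 11586 measured genes, and none was higher (9.82%). In E15.5 mandibular 3 were lower (Nkd1, Nkd2 and Tcf7l2, 14.1% of genes) and 3 higher (Apcdd1, Lef1 and Ctnnb1, 12.8%). That comparison rests on 94 epithelium-like cells, and another scaling moved the median of all genes by 0.106. In P1 maxillary 4 were lower (Nkd1, Nkd2, Lef1 and Tcf7, 13.2%) and none higher (11.1%). In P1 mandibular 3 were lower (Nkd1, Nkd2 and Tcf7, 14.7%) and none higher (10%). Without the shared barcodes Axin2 and Apcdd1 were also at least 2-fold lower in P1 maxillary, at -1.34 and -1.30. Nkd1 and Nkd2 were lower in epithelium in each library. The median log2 ratio of the 9 was -0.77, -0.23, -0.78 and -0.69, beside -0.03, 0.04, 0.07 and 0.03 over all measured genes.

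**Figure D3:**
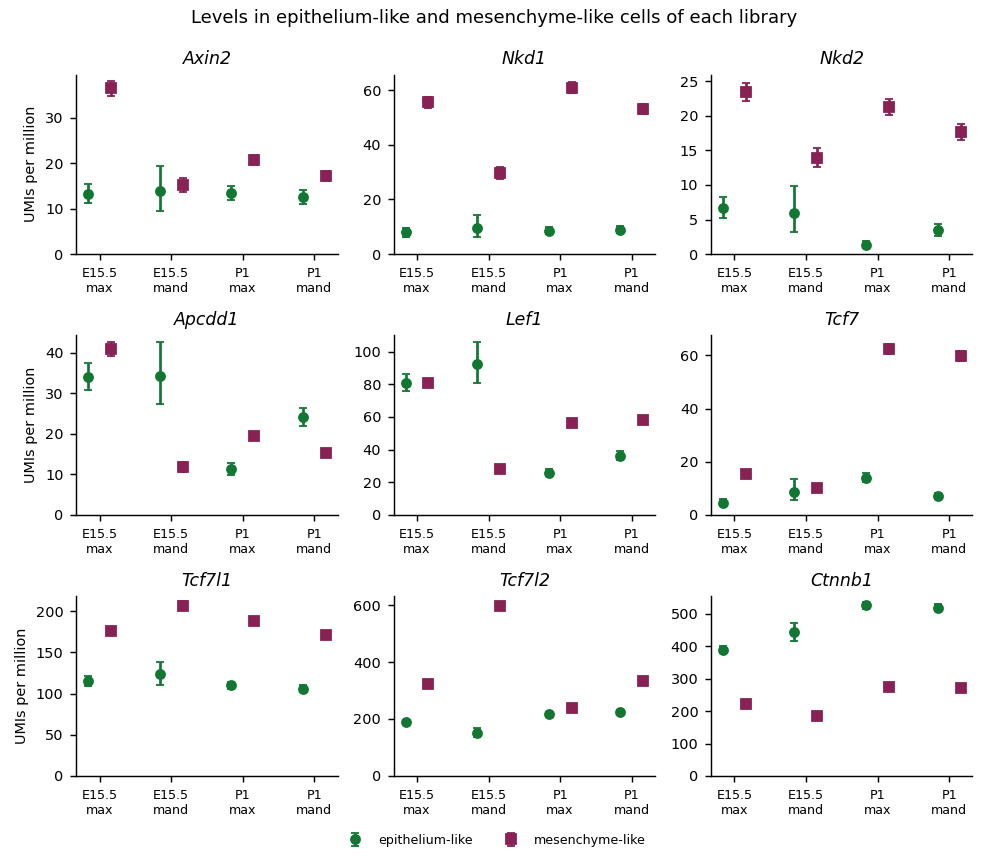
Each panel gives 1 gene's level in CPM (vertical axis, from 0) in epithelium-like cells (green circles) and mesenchyme-like cells (purple squares) of the 4 libraries, with exact 95% Poisson bars. Nkd1, Nkd2 and Tcf7l1 lie higher in mesenchyme and Ctnnb1 higher in epithelium in all 4 libraries, while Lef1 and Apcdd1 change order between libraries.

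Within the epithelium, Lef1 was 239.9 in the 113 dental epithelium-like cells of E15.5 maxillary, 18.3 in the 52 of E15.5 mandibular, and 22.4 and 55.0 in those of P1. The P1 maxillary value was 71.1 (33 UMIs) without the shared barcodes. These classes hold different clusters from library to library. In P1 mandibular, 41 dental epithelium-like cells led by Dab1, Megf11, Susd4, Edar and Fgf9 held 620.6 Lef1, 240.7 Apcdd1 and 1035.8 Ctnnb1. Edar and Fgf9 are genes of epithelial signaling centers.

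Ameloblast-like cells, which secrete enamel matrix and were named in the P1 libraries alone, were compared with the dental epithelium-like cells of their library. Nkd1 was 19.1 against 3.3 in the maxilla and 20.7 against 4.5 in the mandible, log2 ratios of 2.55 (1.87 to 3.26) and 2.20 (1.69 to 2.74). Tcf7 was 3.3 against 22.1 and 3.2 against 8.7, log2 ratios of -2.75 and -1.42. In the maxilla 1 of 8 measured members was higher (Nkd1, 8.28% of genes) and 2 lower (Axin2 and Tcf7, 18.5%). In the mandible 2 were higher (Nkd1 and Apcdd1, 8.38%) and 2 lower (Lef1 and Tcf7, 23.9%), and Lef1 turned direction among cells with at least 2000 UMIs (0.89). Without the shared barcodes the maxillary ratios were 0.14 for Nkd1 and -0.50 for Tcf7. They rest on 2 Nkd1 UMIs and 1 Tcf7 UMI in 60 ameloblast-like cells, too few to tell whether the differences held. With the shared barcodes, the summed dental epithelium markers were no lower in the ameloblast-like cells of the maxilla (1403 against 1206 CPM).

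On the side of the mesenchyme that faces the epithelium, papilla cells become odontoblasts, which lay down dentin. Tcf7l1 was 175.3 in dental papilla-like, 84.5 in dental papilla/osteoblast-like and 34.8 in odontoblast/osteoblast-like cells of P1 maxillary. In P1 mandibular it was 157.7, 52.8 and 22.4. Levels thus fell from class to class in both libraries, with log2 ratios of the last to the first of -2.33 (-2.61 to -2.07) and -2.81 (-3.21 to -2.44). The maxillary classes were 98.6%, 98.4% and 97.4% shared barcodes. To which jaw those cells belong is not known, so the maxillary values are not shown to come from another jaw. The median over all measured genes was -0.27 and -0.34. Whether these classes form a course of differentiation was not tested.

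Tcf7l2 was 213.4, 137.6 and 35.1 in the maxilla and 218.9, 50.1 and 82.8 in the mandible, and Apcdd1 16.5, 9.9 and 3.2, and 19.1, 5.7 and 1.5. Both were at least 2-fold lower in odontoblast/osteoblast-like than in papilla-like cells of each P1 library. Nkd1 took the other direction, with 65.9, 85.4 and 111.9 in the maxilla and 58.5, 140.2 and 80.6 in the mandible, and its highest mandibular value lay in the middle class. Tcf7 was 66.2, 90.0 and 135.7, and 76.3, 172.4 and 61.6, so its order differed between the libraries.

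In odontoblast/osteoblast-like against papilla-like cells, 1 of 9 members was called higher in the maxilla (Tcf7, 8.7% of genes) and none in the mandible (10.8%). Of the 9, 3 were lower in the maxilla (Apcdd1, Tcf7l1 and Tcf7l2, 22.6%) and 4 in the mandible, with Lef1 added (25.5%). In the middle class, none was higher than in papilla-like cells of the maxilla (3.18%) and 1 lower (Tcf7l1, 8.61%), and in the mandible 2 were higher (Nkd1 and Tcf7, 5.02%) and 4 lower (Apcdd1, Lef1, Tcf7l1 and Tcf7l2, 17.6%). The maxillary comparisons could not be made without the shared barcodes. The middle class held cells of clusters with Notum, a secreted enzyme that inactivates Wnt ligands, among their leading genes. In the maxilla these were 199 of its 516 cells, with Nkd1 at 146.2, above the level of the last class there. In the mandible they were 187 cells with Nkd1 at 140.2, the level given above for the whole middle class. The middle class may thus differ in make-up between the libraries. Its part in the order of Nkd1 and Tcf7 was not tested.

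**Figure D4:**
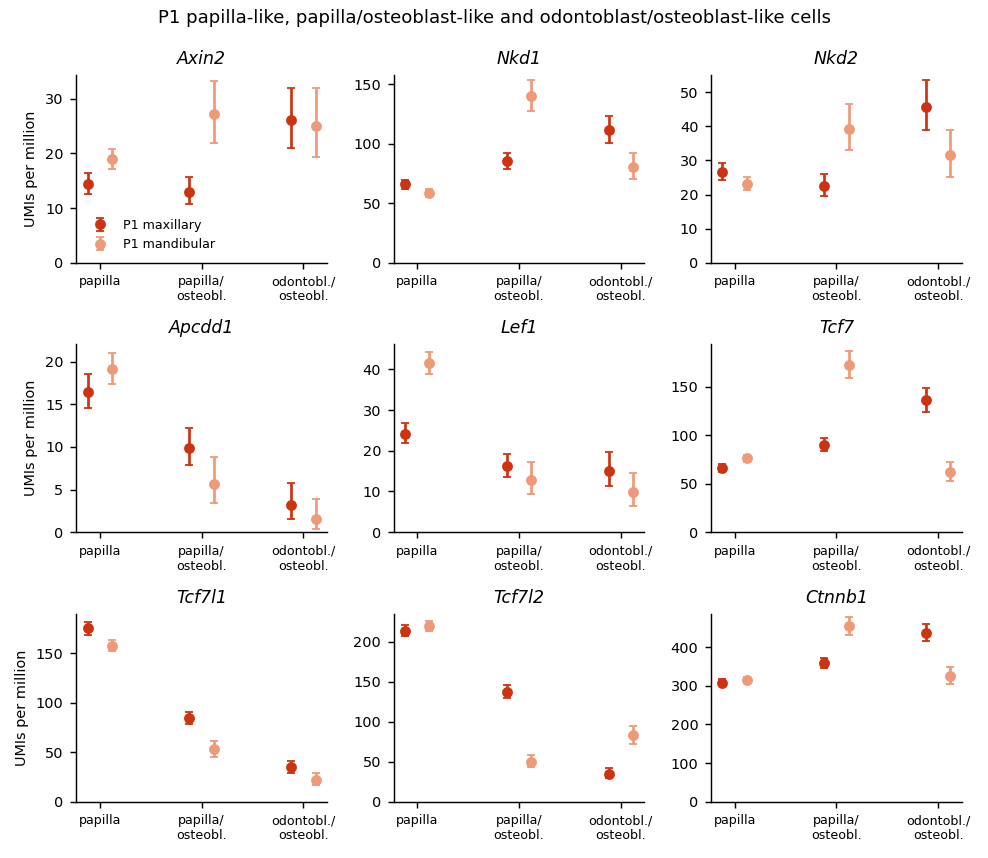
Each panel gives 1 gene's level in CPM (vertical axis, from 0) in dental papilla-like, dental papilla/osteoblast-like and odontoblast/osteoblast-like cells of P1 maxillary (dark red) and P1 mandibular (light red), with exact 95% Poisson bars. Tcf7l1 and Apcdd1 fall across the 3 classes in both libraries, whereas Nkd1 and Tcf7 peak in the last class of the maxilla and the middle class of the mandible. The middle class may differ in make-up between the libraries, and the maxillary classes are nearly all shared barcodes.

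The stages were compared within each compartment and jaw. In mesenchyme-like cells Tcf7 rose from 15.3 to 62.5 in the maxilla and from 10.3 to 59.8 in the mandible, log2 ratios of 2.03 (1.92 to 2.14) and 2.53 (2.36 to 2.72). Without the shared barcodes the maxillary ratio was -0.12, so the maxillary difference rested on them: Tcf7 was 71.8 in shared and 14.1 in maxillary-only mesenchyme-like cells. The mandibular ratio stayed between 1.98 and 2.81 under every alternative setting.

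Lef1 took opposite directions in the 2 compartments of the mandible. It went from 92.7 to 36.3 in epithelium-like cells, a log2 ratio of -1.35 (-1.57 to -1.13), and from 28.3 to 58.4 in mesenchyme-like cells, a ratio of 1.04 (0.93 to 1.16). In the maxilla it was 80.9 and 25.7 in epithelium (log2 -1.65) and 81.0 and 56.5 in mesenchyme (-0.52). The epithelial difference in the maxilla was -2.405 without the shared barcodes. In P1 maxillary mesenchyme-like cells Lef1 was 59.9 in shared and 38.3 in maxillary-only barcodes, both under the 81.0 of E15.5. The rise in mesenchyme was thus seen in the mandible alone.

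In the epithelium 1 of 8 measured members was higher at P1 in the maxilla (Tcf7, 9.38% of genes) and 2 lower (Apcdd1 and Lef1, 5.19%). In the mandible none was higher (7.79%) and Lef1 was lower (7.36%). In the mesenchyme Tcf7 was higher (5.66%) and Apcdd1 lower (4.06%) in the maxilla, and Lef1 and Tcf7 were higher (7.92%) and none lower (3.58%) in the mandible. Tcf7 of the maxillary epithelium, at 4.7 and 14.1, had a ratio of -0.18 without the shared barcodes, and Apcdd1 of the maxillary mesenchyme, at 40.9 and 19.5, had one of -0.33 against -1.07 with them. Axin2 differed between stages by less than 2-fold in all 4 comparisons, with -0.81 in the maxillary mesenchyme as its furthest log2 ratio.

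**Figure D5:**
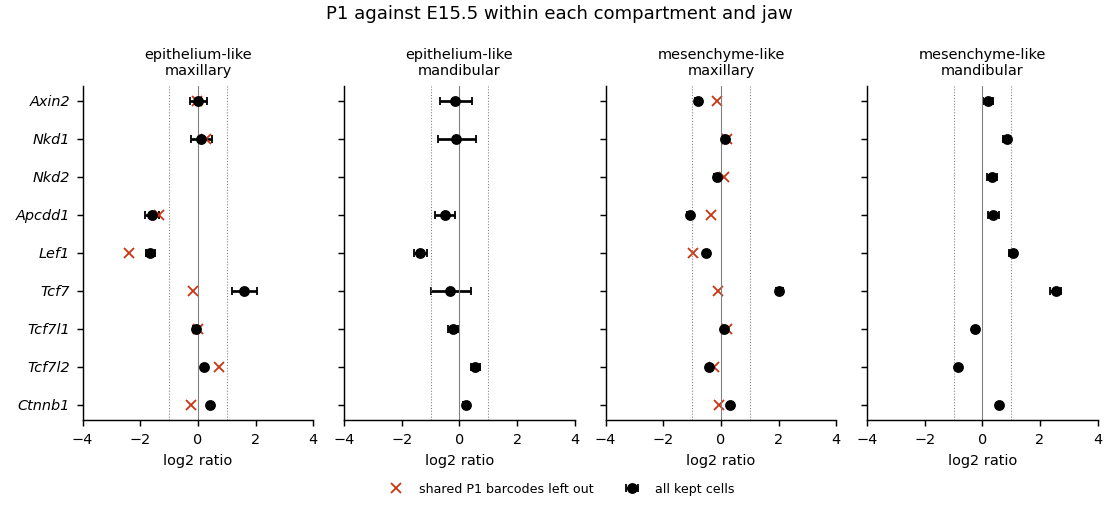
Points give the log2 ratio of P1 to E15.5 (horizontal axis) for each gene (vertical axis) in epithelium-like and mesenchyme-like cells of each jaw, with exact 95% binomial bars, and red crosses the maxillary ratio without the shared P1 barcodes. Dotted lines mark the 2-fold limits, and the 2 maxillary Tcf7 crosses lie at -0.18 and -0.12 while the points lie at 1.59 and 2.03. Nkd2 was too low in epithelium to be compared.

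The jaws differed at E15.5 in mesenchyme. Axin2 was 36.4 in the maxilla and 15.2 in the mandible (log2 1.26, 1.11 to 1.42), Apcdd1 40.9 and 11.8 (1.79, 1.62 to 1.97) and Lef1 81.0 and 28.3 (1.52, 1.40 to 1.63). These were 3 of 9 members called higher, against 3.42% of genes, and none was lower (1.43%). With some unnamed clusters joined to the compartment of their best marker score, a setting chosen after seeing the data, 5 were higher. Only clusters left unnamed because their leading genes belonged to another class were joined. The share of connective tissue fibroblast-like cells also differed, with 955 of 5066 and 536 of 1901 mesenchyme-like cells, and its part in the jaw difference was not tested.

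At P1 none of the 9 was called between jaws in mesenchyme (1.37% of genes higher and 1.6% lower). Without the shared barcodes, Tcf7 there had a log2 ratio of -2.09 and Apcdd1 one of 1.10. In epithelium none was called at E15.5 (2.06% and 3.59%), and at P1 Apcdd1 was lower in the maxilla (1 of 8, 1.19%) and none was higher (3.86%), with a ratio of -1.09 that was -0.87 without the shared barcodes. Lef1 had -0.50 there with and -1.25 without them.

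By class, the P1 jaws gave the following counts. In dental papilla-like cells none of 9 was called in either direction (0.297% and 1.09%), but without the shared barcodes Tcf7 had -4.10 and Axin2 1.26. In ameloblast-like cells Apcdd1 was lower in the maxilla (1.5%) and none of 7 higher (2.06%). In dental epithelium-like cells Tcf7 was higher (0.719%) and Lef1 lower (1.82%). In dental papilla/osteoblast-like cells Tcf7l2 was higher (8.19%) and Axin2 lower (3.41%), and in odontoblast/osteoblast-like cells Tcf7 was higher (4.19%) and Tcf7l2 lower (4.84%). In fibroblast-like cells Apcdd1 was higher (4.64%) and none lower (4.16%). The direction turned under at least 1 other setting for Lef1 in dental epithelium-like cells and for both genes in odontoblast/osteoblast-like cells. Apcdd1 in ameloblast-like cells (-0.89) and Tcf7 in dental epithelium-like cells (0.80) lost their calls without the shared barcodes, on 2 and 7 maxillary UMIs.

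At E15.5, Axin2, Nkd1, Apcdd1 and Lef1 were higher in the maxilla in dental epithelium-like cells (4 of 8, 5.24%) and in fibroblast-like cells (4 of 8, 5.83%), and none was lower (9.01% and 1.68%). Over all epithelium-like cells, however, 0 of 9 were called higher or lower (2.06% and 3.59%). The mandibular dental epithelium-like class was a part of 94 epithelium-like cells, and its Lef1 level lay far under theirs. The named classes may thus hold different cells in each jaw. Lef1 in fibroblast-like cells stood at 14.2 and 0.6. In dental follicle-like cells Lef1 was higher (4.65%) and Apcdd1 lower (4.5%), at 20.4 and 49.4, though 3 other settings turned the direction of Apcdd1, and the mandibular class is the one whose follicle markers were no higher than those of fibroblast-like cells.

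In endothelium-like cells Lef1 went from 8.4 to 39.5 in the maxilla and from 7.6 to 54.0 in the mandible, log2 ratios of 2.24 (1.67 to 2.85) and 2.82 (2.20 to 3.49). Tcf7 was 3.9 and 11.4, and 2.8 and 10.7. Those 2 were the members called higher in the maxilla (2 of 7, 2.31% of genes), and in the mandible Nkd1 and Apcdd1 were called too (4 of 8, 7.08%). None was lower (1.6% and 3.55%). The maxillary ratios without the shared barcodes were 2.10 for Lef1 and 1.00 for Tcf7.

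Pericyte-like cells, which wrap small vessels, held 3.2 and 28.3 Lef1 in the maxilla and 3.8 and 44.4 in the mandible. There 3 of 9 members (Apcdd1, Lef1 and Tcf7) were higher at P1 in each jaw, against 8.97% and 11.4% of genes, on 71 to 175 cells a library, and none was lower (4.58% and 7.86%). After thinning, the maxillary ratios of Apcdd1 and Tcf7 had the opposite sign. Without the shared barcodes the maxillary ratio of Apcdd1 was 0.20 (12 UMIs at P1) and that of Lef1 was 1.94 (5 UMIs at P1). In glia-like cells of the mandible Nkd1 was 18.3 at E15.5 and 167.4 at P1 (log2 3.20, 2.63 to 3.81), 1 of 9 members called higher (8.23%), and none was lower (7.56%). In the maxilla it was 34.6 and 64.8, under 2-fold, and no member was called (4.05% and 2.82%).

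In dental epithelium-like cells of the maxilla Nkd1, Apcdd1 and Lef1 were lower at P1 (3 of 8, 7.39%), Nkd1 at -0.72 and so no longer without the shared barcodes, and none was higher (6.78%), and in those of the mandible Lef1 was higher (5.4%) and Nkd1 lower (6.98%). The mandibular Lef1 values were 18.3 and 55.0, and 4 other settings turned their direction. In dental follicle-like cells of the mandible Lef1 and Tcf7 were higher (2 of 9, 8.9%) and none lower (7.89%), with the same weakly held class name at E15.5.

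In fibroblast-like cells Lef1 was lower in the maxilla (6.57%) and none higher (3.91%), while in the mandible Axin2 and Apcdd1 were higher (7.48%) and Nkd2 lower (5.5%). Of these 4 calls, those of Lef1, Apcdd1 and Nkd2 turned direction under at least 1 other setting. In muscle-like cells Lef1 was lower in the maxilla (2.58%), though at -0.21 without the shared barcodes, and none higher (3.82%), and no member was called in the mandible (6.79% and 2.15%). In immune-like cells Lef1 was lower in the maxilla (1 of 3, 2.95%), at 21.8 and 2.4, and none was higher (2.39%), and none of 2 was called in the mandible (6.51% and 3.24%).

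Other genes of the pathway were followed from 3 lists. Of 13 further feedback and target genes, 10 could be measured between stages in the mesenchyme of each jaw. Of these, 6 were at least 2-fold higher at P1 than at E15.5 in both jaws, namely Notum, Lgr6, Dkk1, Wif1, Bambi and Ccnd1, against 5.66% and 7.92% of all genes. The stem cell receptor gene Lgr5 was lower in both, against 4.06% and 3.58%. In the maxilla 0 of 9 were called higher and 0 lower without the shared barcodes, so the maxillary calls rest on those barcodes. At P1 the inhibitor genes Dkk1, Notum and Wif1 were mesenchymal: Dkk1 stood at 2.1 and 1.9 in epithelium and 99.6 and 88.0 in mesenchyme. In the maxilla only Wif1 of these 3 was still called without the shared barcodes. Rnf43, whose product removes Wnt receptors from the membrane, was epithelial at both stages, at 60.1, 55.8, 49.0 and 51.1 in epithelium and 1.0, 2.0, 0.9 and 1.0 in mesenchyme.

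Znrf3, the partner of Rnf43, Ctnnbip1, which keeps beta-catenin from binding TCF/LEF factors, and the cell cycle gene Ccnd1 were epithelial in both jaws at E15.5, and the receptor gene Tnfrsf19 at P1, with 159.0 and 157.2 in epithelium and 47.0 and 30.8 in mesenchyme. Ctnnbip1 stood at 138.7 and 179.1 in epithelium and 68.9 and 75.5 in mesenchyme, log2 ratios of 1.01 and 1.25. Of the 10 measured nuclear partners of TCF/LEF factors, the co-repressor gene Tle2 was lower in epithelium in all 4 libraries, while Tle4 was higher there at P1, with 187.4 and 187.8 against 78.3 and 56.9. The maxillary calls of Tnfrsf19 and Tle4 were lost without the shared barcodes. Of 11 genes of the destruction complex and Dishevelled family, 1 was called, Apc, which was higher in the epithelium of P1 maxillary, against 11.1% of all genes. None was called in the other 11 comparisons of compartments, stages and jaws, where 1.19% to 15.1% of all genes were called in a direction.

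Over the 76 classes of at least 30 cells in the 4 libraries, likeness was taken as Spearman's rho of log2 levels among 13618 genes. It is a description, since classes of 1 library share depth and stage. The genes most like Axin2 were 1190005I06Rik (0.78), Kif26b and Nkd1 (both 0.76), Wnt5a and Robo2 (both 0.74). Lef1 was most like Zfp362 (0.74), Fancc (0.72), Zfp184, Zfyve9 (both 0.68) and Tcf7 (0.67), and Tcf7 was most like Eml4, Ptch1 (both 0.78), Wif1, Grik4 and Matn4 (all 0.73). Among the 9 genes themselves, Nkd1 and Nkd2 were the closest pair (0.80), while Tcf7l2 had a rho of 0.09 with Lef1 and -0.05 with Tcf7.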

How the data were processed

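For each library the authors deposited raw UMI counts per gene and barcode (10x Genomics 3′ v3.1), made by Cell Ranger 7.0.1 per the file headers, with the mm10 genome and its refdata-gex-mm10-2020-A annotation. This release counts intronic reads by default, and whether that was kept is not given in the sources used here. Barcodes with at least 1000 UMIs were used, and P1 mandibular barcodes also in P1 maxillary were dropped. Cells over 3 median absolute deviations in mitochondrial percent and the top Scrublet scores (0.8% per 1000 barcodes) were removed, since Scrublet's own threshold marked 0 to 233 barcodes. Each library was clustered alone (scanpy 1.11.5, 2000 variable genes, 40 components, Leiden resolution 1.0) without the members and the other listed pathway genes. Epithelium-like and mesenchyme-like cells were then each clustered again, with 20 components and 1.5 times the resolution. The finer classes within these compartments come from that second round. Levels, exact intervals (scipy 1.17.1) and ratios came from summed counts. Genes with a mean of at least 5 CPM were measured in a comparison, and a class at 0 was set to 3 counts. The ratio step was tested on simulated data. Members and lists were chosen with earlier results of these data known, and naming thresholds after seeing the clusters. All 9 members are named. Other pathway genes are those at least 2-fold different between compartments in both jaws, up to 5 per direction, and likeness the 5 genes of highest rho. Bambi, Lgr5 and Apc, and the genes of the stage count, were named after their values were seen. Clusters and further cell class comparisons were chosen after their values were seen. 12 alternatives were planned and 2 added after seeing the data.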

Additional observations from a re-analysis of the deposited data

Results flagged for a closer look

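Lef1 moved in opposite directions between stages in the 2 compartments of the mandible. The log2 ratio of P1 to E15.5 was -1.353 (-1.57 to -1.13) in epithelium-like cells and 1.043 (0.93 to 1.16) in mesenchyme-like cells. With 1 library per stage the difference between the compartments was not tested. The mesenchymal ratio was under 2-fold when only cells with at least 2000 UMIs were kept (0.98). The epithelial one rests on 94 cells at E15.5 and ran from -2.48 to -0.50 over the settings tried.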

How the results depend on the processing

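With 1 library per group no replicate could be left out. No paired analysis was possible because no group has a second library and no test was made. The cause of the changes below was not tested. Counts of members called stayed within 1.5 times in 329 planned combinations of result and setting and moved further in 31, and stayed in 33 and moved in 6 of those added after seeing the data. Without the shared P1 barcodes the maxillary stage counts fell to 0 for members higher in epithelium (from 1) and for those higher and lower in mesenchyme (from 1 each), and the P1 jaw counts in mesenchyme became 1 higher and 1 lower (from 0). With them in both libraries, members lower in maxillary P1 epithelium were 0 (from 1). They were also 0 at 2000 UMIs, without doublet removal, without the mitochondrial filter, at resolution 0.5 and with unnamed clusters joined, and 2 with equal cell weights or thinning. Members higher there became 1 (from 0) at 2000 UMIs, at 500 UMIs, at resolution 0.5, with unnamed clusters joined and without olfactory cells. Members lower in maxillary E15.5 epithelium became 1 (from 0) at 500 UMIs, with the detected-gene filter and with equal weights, and 2 thinned. Members higher in epithelium than mesenchyme became 1 (from 0) in P1 maxillary with equal weights, thinning or olfactory cells left out, and in P1 mandibular 1 with equal weights or unnamed clusters joined and 2 thinned. Members lower at P1 in mandibular epithelium were 0 with equal weights and 2 thinned (from 1). Members lower in maxillary mesenchyme were 0 (from 1) without doublet removal, with equal weights and thinned. In mandibular mesenchyme 1 was higher at 2000 UMIs (from 2) and 1 lower at resolution 0.5 (from 0). With unnamed clusters joined, 5 members were higher in maxillary E15.5 mesenchyme (from 3). At 2000 UMIs 3 members stood at 20 CPM or more in P1 mandibular epithelium.

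Of 115 single log2 ratios of at least 2-fold, 14 changed direction under at least 1 setting, in 24 combinations of ratio and setting. Of 256 under 2-fold, 137 changed sign under at least 1 setting. Without the shared barcodes those 24 included Tcf7 between stages in maxillary epithelium (-0.184) and mesenchyme (-0.1196), Lef1 between jaws in P1 dental epithelium-like cells (0.3699), Lef1 between stages in maxillary fibroblast-like cells (1.505) and Nkd2 in P1 maxillary fibroblast-like against other mesenchyme (0.02817). At 2000 UMIs they were Lef1 between stages in mandibular dental epithelium-like cells (-1.753), Lef1 between jaws in P1 dental epithelium-like cells (0.8321), Tcf7 between jaws in odontoblast/osteoblast-like cells (-0.381) and Lef1 in P1 mandibular ameloblast-like against dental epithelium-like cells (0.8905). At 500 UMIs they were Lef1 in mandibular dental epithelium-like cells (-0.2781) and Apcdd1 between jaws in E15.5 dental follicle-like cells (0.1649). Without doublet removal they were Tcf7 (-0.3814) and Tcf7l2 (0.5611) between jaws in odontoblast/osteoblast-like and Apcdd1 in E15.5 dental follicle-like cells (0.05368). Without the mitochondrial filter they were Lef1 in mandibular dental epithelium-like (-0.306) and Nkd2 between stages in mandibular fibroblast-like cells (0.1515). The latter was 0.5085 at resolution 0.5 and 0.1985 at 2.0, where Lef1 in mandibular dental epithelium-like (-0.4386), Tcf7 in odontoblast/osteoblast-like (-0.1046) and Apcdd1 in dental follicle-like cells (0.1254) also turned. Thinning turned Apcdd1 (-0.5637) and Tcf7 (-0.3186) in maxillary pericyte-like and Apcdd1 in mandibular fibroblast-like cells (-0.3803).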

Other observations

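Epithelium-like cells were split by whether they held a UMI of Shh, a ligand gene that is not one of the 9, after the data had been seen. Shh was among the 7 markers that named dental epithelium-like cells, and epithelium-like cells also hold epithelium from outside the tooth. How far the split separates tooth from other epithelium was not tested. In E15.5 maxillary 53 of 722 did (7.34%, median depth of the class 13740 UMIs), against 0 of 316 immune-like cells (9280 UMIs), which allows up to 1.16%, and 0.316% of erythroid-like cells (6057 UMIs). The 53 cells held Lef1 at 484.9 CPM, against 51.6 in the 669 without one, a 9.39-fold ratio (log2 3.23, 3.04 to 3.42). Nkd1 was 59.1 against 4.2 there, Apcdd1 142.8 against 26.2 and Axin2 35.7 against 11.6. Ctnnb1 was 787.7 against 361.0, whereas Tcf7l1 was 124.3 against 114.7. Nkd2 was 1.2 against 7.1 (log2 -2.52, -7.84 to 0.00), on 1 UMI in the cells with Shh.

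At P1, 816 of 2141 epithelium-like cells of the maxilla (38.1%) and 800 of 1204 of the mandible (66.4%) held a Shh UMI, against 0.718% and 2.14% of immune-like cells and 0.173% and 4.28% of erythroid-like cells. Median depths were 7251 and 13381 UMIs in epithelium-like, 2694.5 and 7038 in immune-like and 1921 and 2874 in erythroid-like cells. Lef1 was again higher in those with a Shh UMI, 34.4 against 14.3 in the maxilla and 48.2 against 10.0 in the mandible. Nkd1 was 10.2 against 6.3 (log2 0.69) and 11.3 against 3.5 (1.69), and Apcdd1 13.3 against 8.8 (0.60) and 30.3 against 10.7 (1.51). Axin2 was not higher there, at 11.3 against 16.1 and 12.2 against 13.2, and Nkd2 was lower, at 0.25 against 2.8 and 0.61 against 9.7. Cells with a Shh UMI were deeper in the maxilla, with a median of 13478.5 UMIs against 3892, and the part of depth was not tested. The 2141 maxillary cells included 343 olfactory or respiratory epithelium-like cells, whose part was not tested either. The maxillary values were not computed without the shared barcodes. In E15.5 mandibular there were too few such cells to be given.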
